A study of Homo sapiens with 12 samples.

Results

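The HLA class I and peptide loading genes were followed here as 9 listed genes among 38865 protein-coding and long noncoding RNA genes, in H3K4me3 and IgG peak lists from BON1 cells, an established human pancreatic neuroendocrine tumor line. The genes are HLA-B, HLA-C, HLA-E, HLA-F, HLA-G, TAP1, TAP2, TAPBP and the long noncoding RNA gene PSMB8-AS1. All lie on the short arm of chromosome 6, in the major histocompatibility complex (MHC). For each gene, the peaks near its 5′ end on chr6 were taken from every library. The peaks on the 7 alternative chr6 haplotype contigs of the hg19 (GRCh37) genome in the same lists were counted with them.

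The study compared a control line, BON1/TGL/pQ, with BON1/TGL/HA-Bcl-xL, a line made to overexpress Bcl-xL with an HA tag; Bcl-xL protects cells from apoptosis. The series text gives 500000 cells for a condition. Both lines were grown in puromycin. Trimethylation of histone H3 at lysine 4 (H3K4me3) marks the starts of active genes, and it was mapped with CUT&RUN, where a nuclease tethered to an antibody releases the bound chromatin for sequencing. The H3K4me3 antibody gave 3 control and 2 HA-Bcl-xL libraries (replicates 2 and 3), HA-Bcl-xL replicate 1 was not analysed here, and a rabbit anti-mouse IgG gave 3 background libraries per line. The labels do not say whether replicates were separate cultures, nor whether the HA-Bcl-xL line was 1 clone, so the spread given here is that between libraries and may be technical.

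Class I molecules carry short peptides from inside the cell to its surface, where cytotoxic T cells and natural killer cells read them. HLA-B and HLA-C are classical class I heavy chains, and HLA-E, HLA-F and HLA-G are nonclassical ones with narrower roles. TAP1 and TAP2 form the transporter that moves peptides from the cytosol into the endoplasmic reticulum, and TAPBP encodes tapasin, which holds the empty class I molecule at that transporter. PSMB8-AS1 is transcribed near the genes of the immunoproteasome subunits PSMB8 and PSMB9. Many tumors lower this pathway, and interferon-gamma raises it in most cell types through NLRC5, the RFX and NF-Y factors and the IRF family.

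Of the 9 genes, HLA-B alone had a peak in all 5 H3K4me3 libraries, and it was one of the stronger peaks of each list. HLA-C had one in 3 libraries and TAP2 in 4, both at modest height. TAPBP had peaks of similar height in 2 libraries, inside the gene, and HLA-E and TAP1 had peaks of at most 5 fragments in 1 library each. HLA-F, HLA-G and PSMB8-AS1 had none in any library. No IgG library had a peak at any of the 9 genes. Between HA-Bcl-xL and control cells only the HLA-B peak could be tested in size with all libraries, and limma, a linear model fitted over all genes, did not call it different.

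The promoters of HLA-B, HLA-C and HLA-F are shown first because these 3 class I promoters were close relatives in sequence and yet differed in peaks, and TAP1 and TAP2 because both carried an interferon-type element and differed too. Each sequence is the 250 bases before the start that RefSeq gives on GRCh38.p14, 5′ to 3′ on the gene's own strand, and each matched chr6 of GRCh37 at exactly 1 place. Capitals mark 5 short elements on either strand: CCAAT, the NF-Y box; TGACG, the core of a CREB/ATF site; GAAA, any 2 bases and GAAA again, the pattern of an interferon-stimulated response element (ISRE); GGGCGG, the SP1 box; and TATAAA.
HLA-B: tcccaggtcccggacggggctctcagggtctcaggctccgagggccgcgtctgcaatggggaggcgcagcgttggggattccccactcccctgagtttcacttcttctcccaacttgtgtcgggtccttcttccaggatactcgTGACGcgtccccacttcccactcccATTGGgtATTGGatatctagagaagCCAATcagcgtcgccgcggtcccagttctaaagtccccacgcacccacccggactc
HLA-C: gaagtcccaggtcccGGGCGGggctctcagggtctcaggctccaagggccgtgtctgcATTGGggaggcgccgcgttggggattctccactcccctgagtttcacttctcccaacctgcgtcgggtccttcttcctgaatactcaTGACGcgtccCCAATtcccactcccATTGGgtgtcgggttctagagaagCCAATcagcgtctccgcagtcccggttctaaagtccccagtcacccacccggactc
HLA-F: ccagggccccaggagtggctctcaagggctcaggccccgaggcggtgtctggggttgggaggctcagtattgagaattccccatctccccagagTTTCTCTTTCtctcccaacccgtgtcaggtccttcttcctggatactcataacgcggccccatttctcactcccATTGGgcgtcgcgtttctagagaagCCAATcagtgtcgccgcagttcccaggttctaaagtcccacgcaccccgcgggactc
TAP1: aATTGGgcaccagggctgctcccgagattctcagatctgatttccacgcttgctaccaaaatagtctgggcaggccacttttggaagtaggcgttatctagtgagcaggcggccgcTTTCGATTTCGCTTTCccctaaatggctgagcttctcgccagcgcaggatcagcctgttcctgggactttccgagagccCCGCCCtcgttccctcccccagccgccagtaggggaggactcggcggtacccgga
TAP2: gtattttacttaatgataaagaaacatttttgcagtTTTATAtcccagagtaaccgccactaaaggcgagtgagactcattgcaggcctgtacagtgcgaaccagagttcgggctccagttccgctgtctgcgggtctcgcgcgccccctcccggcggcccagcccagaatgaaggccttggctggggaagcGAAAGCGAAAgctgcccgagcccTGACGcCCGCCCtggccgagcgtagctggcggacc

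Over these 250 bases HLA-B was 89.0% identical to HLA-C and 80.7% to HLA-F, and its longest unbroken run shared with HLA-C was 25 bases. The third start of HLA-G, which is that of its canonical transcript, was 74.3% identical to HLA-B. TAP1 and TAP2 were 54.1% identical to each other. Position -1 is the base before the start. In HLA-B the TGACG element lay at positions -106 to -102, and CCAAT or its reverse complement ATTGG at -81 to -77, -74 to -70 and -56 to -52. HLA-C had the TGACG element at -105 to -101 and its last 2 NF-Y boxes at -80 to -76 and -56 to -52, whereas HLA-F had NF-Y boxes at -82 to -78 and -57 to -53 and no TGACG. TAP1 had overlapping ISRE patterns at -134 to -125 and -128 to -119, and TAP2 had one at -58 to -49.

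RefSeq promoters, from 250 bases before to 50 after a start, were found for 8 of the 9 genes, and HLA-E had no entry. These were 11 windows, since HLA-G had 3 and TAP1 had 2. An ISRE pattern was present in 5 of the 11 windows (1 each of HLA-F, TAP1, TAP2, TAPBP and PSMB8-AS1), and in 3.57% of 35116 promoters of the same length. CCAAT matched in 5 of 11 windows and 34.6% of promoters, TGACG in 3 of 11 and 24.6%, GGGCGG in 7 of 11 and 45.0%, and TATAAA in 2 of 11 and 11.5%, one of these in a window of HLA-G other than that of its canonical transcript. A match is a description of the letters and was not tested for binding. Only the exact letters were searched, so a window without a match, such as those of HLA-B and HLA-C for the ISRE pattern, may still hold a variant. HLA-F, with NF-Y boxes and an ISRE pattern, had no peak on chr6. TAP2, with no NF-Y box in its window, had one in 4 libraries. Those TAP2 peaks began 389 or 390 bp after the start, beyond the window searched. Whether peaks go with these elements was not tested.

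The libraries differed in size. On chromosomes 1 to 22, X and Y the H3K4me3 lists held 10247 to 17711 peaks, fewest in control replicate 3 and most in control replicate 1. Control IgG lists held 1674 to 2113 peaks and HA-Bcl-xL IgG lists 244 to 268. The lists give no read totals. The number of fragments stacked at each summit was solved from the deposited fold and -log10 p. The solution also gives a background floor per library (0.0478 to 0.0705 over the H3K4me3 libraries). This floor was used as a stand-in for depth, and how closely it follows depth was not tested. Among markers of the labelled cell type, CHGB, KRT8 and KRT18 had promoter peaks in all 5 H3K4me3 libraries and EPCAM in 4, while CHGA had one in 1, SYP in 2 and INSM1 and ENO2 in none (INSM1 had peaks in all 5 within 2500 bp). The haematopoietic markers PTPRC, CD3E and CD14 had no peak.

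A pair of promoter definitions was needed for these genes. The main one takes 1000 bp on either side of the most 5′ end that GENCODE gives the gene, and the other takes the 5′ end of any annotated transcript. They differ most for HLA-B, on the minus strand at chr6:31321649-31334844 in GRCh37, whose 9 different 5′ ends span 11265 bp. Its most 5′ end, at 31334844, lies far upstream of the start of its canonical transcript and of RefSeq at 31324956. No library had a peak at the former, and all 5 had one at the latter.

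The main HLA-B peak covered chr6:31324947-31325115 in control replicate 1, and its summit held 28 fragments. Control replicates 2 and 3 had 29 and 22 fragments at theirs, and HA-Bcl-xL replicates 2 and 3 had 23 and 13. The HA-Bcl-xL replicate 3 peak was the lowest of the 5. Ranked within each list, the peak stood at percentiles 98.3, 99.4 and 98.7 of the control lists, and 97.9 and 84.6 of the HA-Bcl-xL lists. The deposited fold enrichments, the authors' own values for each peak, were 18.8, 19.7 and 16.6 in the control lists and 16.6 and 10.2 in the HA-Bcl-xL lists.

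All 5 HLA-B summits lay before the start, at -99, -86 and -64 bp in control replicates 1 to 3 and at -94 bp in both HA-Bcl-xL libraries. They thus sat on or beside the stretch of TGACG and CCAAT letters printed above. A second, lower HLA-B peak was called in control replicates 1 and 3 and HA-Bcl-xL replicate 2, with summits of 11, 8 and 8 fragments at 347, 351 and 414 bp after the start, in coding exon 2.

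**Figure D1:**
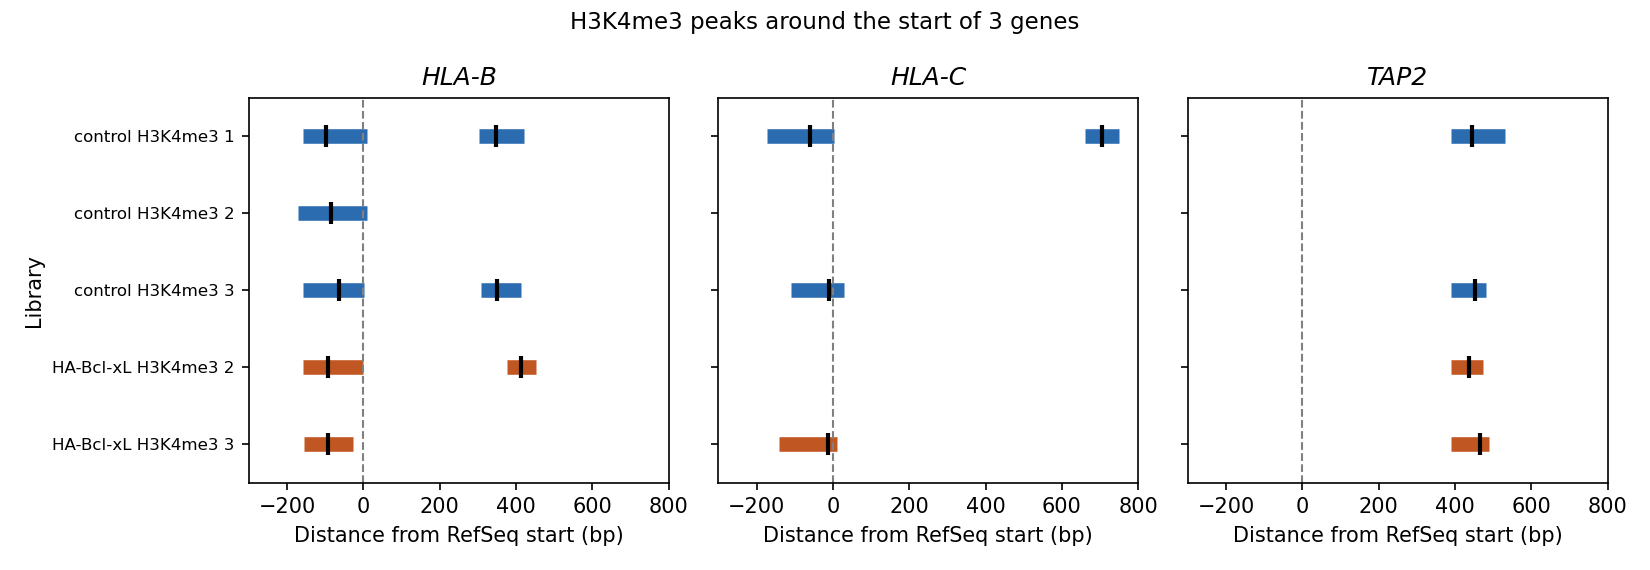
Peak positions at HLA-B, HLA-C and TAP2 in each H3K4me3 library, with distance from the RefSeq start in bp on the x axis (negative is upstream). Bars are peaks (blue, control; orange, HA-Bcl-xL) and black ticks their summits; HLA-B and HLA-C summits lie before the start, apart from the lower second peaks, and TAP2 summits lie 438 to 465 bp after it.

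HLA-C lies on the minus strand at chr6:31236526-31239907. Its peak was called in control replicates 1 and 3, with 9 and 8 fragments at the summit, and in HA-Bcl-xL replicate 3, with 8. Control replicate 2 and HA-Bcl-xL replicate 2 had none. The summits lay at -59, -10 and -13 bp, and the peaks ranked at percentiles 61.7, 61.0 and 55.9 of their lists, near the middle rather than near the top as at HLA-B. A further peak of 4 fragments lay in intron 2 in control replicate 1. The lncRNA gene ENSG00000288813 begins 110 bp from HLA-C on the opposite strand, and the peaks at this pair could not be assigned to either gene.

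Among the nonclassical genes, HLA-E (plus strand, chr6:30457286-30461971) had peaks in HA-Bcl-xL replicate 2 only. One held 5 fragments with its summit 40 bp before the GENCODE start, and the other held 3 in intron 2, with a deposited -log10 q of 2.00, the lowest in any of the lists. HLA-F (plus strand, chr6:29690552-29706305) and HLA-G (plus strand, chr6:29794744-29798902) had no peak within 2500 bp of any annotated 5′ end in any of the 5 libraries. HLA-E is the ligand of the CD94/NKG2A receptor of natural killer cells, and HLA-G is known mainly from the placenta.

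For the transporter, TAP2 (minus strand, chr6:32789610-32806516) had a peak in 4 of 5 libraries. Its summits held 7 and 5 fragments in control replicates 1 and 3, while the HA-Bcl-xL libraries had 7 and 6. Control replicate 2 had no peak. All 4 summits lay in intron 1, at 445, 452, 438 and 465 bp after the start, so the values of the lines overlapped and so did the positions. TAP1 (minus strand, chr6:32812986-32821593) had 1 peak, of 5 fragments in coding exon 1, in control replicate 1, and it ranked at percentile 15.1 of its list. That same peak falls within 1000 bp of a PSMB9 transcript end. Another protein-coding gene model, ENSG00000250264, begins 83 bp from TAP2, and its window held the same 4 peaks.

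TAPBP (minus strand, chr6:33267471-33282061) had no peak within 1000 bp of its most 5′ end. Farther in, 6 fragments in control replicate 3 and 8 in HA-Bcl-xL replicate 2 marked intron 3, with summits 1147 and 1193 bp after the RefSeq start. PSMB8-AS1 (plus strand, chr6:32811855-32814277) had no peak in any library at either distance, and neither did PSMB8, which begins 601 bp away.

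**Figure D2:**
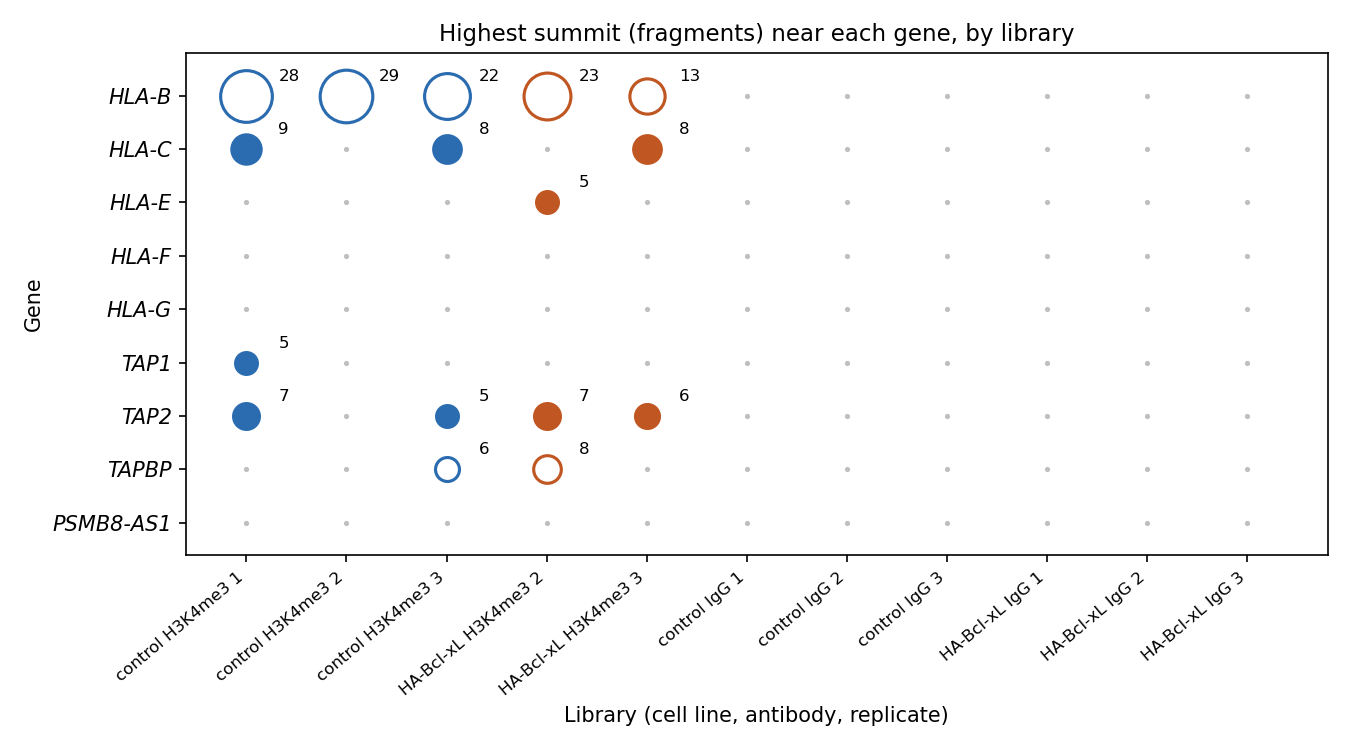
Fragments at the highest peak summit near each of the 9 genes (rows) in each of 11 libraries (columns). Circle area follows the printed fragment number, filled circles lie within 1000 bp of the most 5′ end, open circles only near another transcript's 5′ end, and small grey dots mark no peak; HLA-B, at 13 to 29, is the highest row, and the 6 IgG columns are empty.

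Presence of a peak was tested per gene over libraries, 5 with the H3K4me3 antibody against 6 with IgG, by a two-sided Fisher's exact test with Benjamini-Hochberg adjustment over all 38865 genes. Under the main definition 0 of the 9 genes passed an adjusted p of 0.05, where 14.1% of all genes did. TAP2 came nearest, with an exact p of 0.0152 and an adjusted p of 0.0768, followed by HLA-C at 0.0606 and 0.253. At an unadjusted exact p below 0.05, TAP2 was the only one of the 9, where 19.7% of all genes passed. With the 5′ end of any transcript, HLA-B was the 1 of 9 that passed (exact p of 0.00216, adjusted p of 0.0130), where 16.7% of all genes did and 17.1% had a peak in all 5 H3K4me3 libraries. Without control replicate 2, which has no TAP2 peak, TAP2 reached an adjusted p of 0.0309 in the same Fisher's exact test. Under the main definition no gene of the genome passed Fisher's exact test with any IgG library left out, where the smallest exact p is 0.00794. Leaving out an IgG library was not tried with any transcript end, the definition under which HLA-B passed.

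Counted per gene, 4 of the 9 had a peak in at least 1 H3K4me3 library under the main definition, where 33.3% of all genes and 48.1% of protein-coding genes did. The median of the 9 was 0 libraries, as it was for all genes and for protein-coding genes. With any transcript end, 6 of 9 had one, against 38.2% of all genes and 56.6% of protein-coding genes. Since 8 of the 9 are protein-coding, both counts are near the share of such genes. Control libraries had peaks at 3, 0 and 2 of the 9 genes, in replicate order, and both HA-Bcl-xL libraries at 2. The mean was 1.67 ± 1.53 (SD, n = 3) in control cells and 2 ± 0 (SD, n = 2) in HA-Bcl-xL cells, a difference of 0.333 that was within the pooled SD of 1.25. Without control replicate 2 the difference turned to -0.5.

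A peak in each HA-Bcl-xL library with none in control cells, seen in 0.589% of all genes, occurred at 0 of the 9 genes, and so did the opposite pattern, with all 3 control libraries and neither HA-Bcl-xL library, seen in 0.175%. Control replicate 2, with a peak only at HLA-B, had the highest background floor of the 5 but the second smallest list, and the part of depth in these counts was not tested.

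HLA-B is the one member whose peak could be compared in size between the lines with all libraries, since limma needs a peak in each. Scaled to each library's floor, its summit stood at 425, 411 and 460 times the floor in the control libraries and at 333 and 191 times in those of HA-Bcl-xL. Both HA-Bcl-xL values lay below all 3 control values, as they did at 9.74% of 6665 genes with a peak in all 5 libraries. Before scaling the lines overlapped, with 22 fragments in control replicate 3 and 23 in HA-Bcl-xL replicate 2. The bases under HLA-B peaks were 289, 181 and 268 in control cells and 236 and 131 in HA-Bcl-xL cells, and these ranges overlapped. limma, fitted over all 6665 genes on log2 values centred on each library's median, gave a change of -0.73 (SE 0.27) in summit fragments, with an unadjusted p of 0.0146 and an adjusted p of 0.749. The same limma fit gave a change of -0.58 (SE 0.44) in width, with an adjusted p of 0.994.

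At no gene of the 6665 did limma find a change at an adjusted p of 0.05 in summit fragments (0%) or in width (0%), although 393 and 320 genes had an unadjusted p below 0.05. HLA-B's lower summit is therefore not told apart from the spread between libraries. It rests largely on HA-Bcl-xL replicate 3, since without that library the log2 change was -0.34. Without HA-Bcl-xL replicate 2 it was -1.14. In both cases limma assumes that the lone HA-Bcl-xL library varies like the others.

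The other genes of the class I pathway, 33 in 5 lists, were read the same way. Under the main definition 16 of 33 had a promoter peak in all 5 H3K4me3 libraries, where 14.2% of all genes and 21.3% of protein-coding genes did, and the same 16 passed Fisher's exact test at an adjusted p of 0.0153. Another 12 had a peak in 1 to 4 libraries and 5 had none. The pathway genes outside the MHC thus carried peaks in most libraries, while those inside it did not: 16 of 29 genes outside the span from HLA-F to TAPBP had a peak in all 5, and 0 of 4 inside it (PSMB8, PSMB9, MICA and MICB).

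Of the proteasome genes, PSMB10, the third immunoproteasome subunit, and PSME1 and PSME2, which form the PA28 activator, had peaks in all 5 libraries. PSMB8 and PSMB9, which sit beside TAP1 and TAP2, had none. Of the chaperones, CALR (calreticulin), PDIA3 (ERp57) and HSPA5 (BiP) had peaks in all 5, TAPBPL, a tapasin-like peptide editor, in 4 and CANX (calnexin) in 3. With any transcript end CANX had one in all 5. Of the peptidases that trim or destroy peptides, ERAP2, LNPEP and TPP2 had peaks in all 5 and ERAP1 in 4.

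Of 14 regulators, 7 had a peak in all 5 libraries: NLRC5, the class I transactivator; RFX5, RFXAP and RFXANK, the 3 subunits of the RFX complex; NFYB; ATF1; and STAT2. NFYC had one in 4, IRF9 and CREB1 in 3, IRF2 in 2, NFYA in 1 and IRF1 in none. With any transcript end, CREB1 and NFYC also had one in all 5 and IRF1 in 3. STAT2 kept its 5 there, but 1 IgG library then had a peak too, and its adjusted Fisher's exact p was 0.0645. Within 2500 bp of the most 5′ end, CREB1 and NFYA had one in all 5. Of the class I-like genes, CD1D had a peak in 2 libraries, MICA and HFE in 1 each, and MICB and MR1 in none. No gene of 11 in the HLA class II list had a peak in any library.

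**Figure D3:**
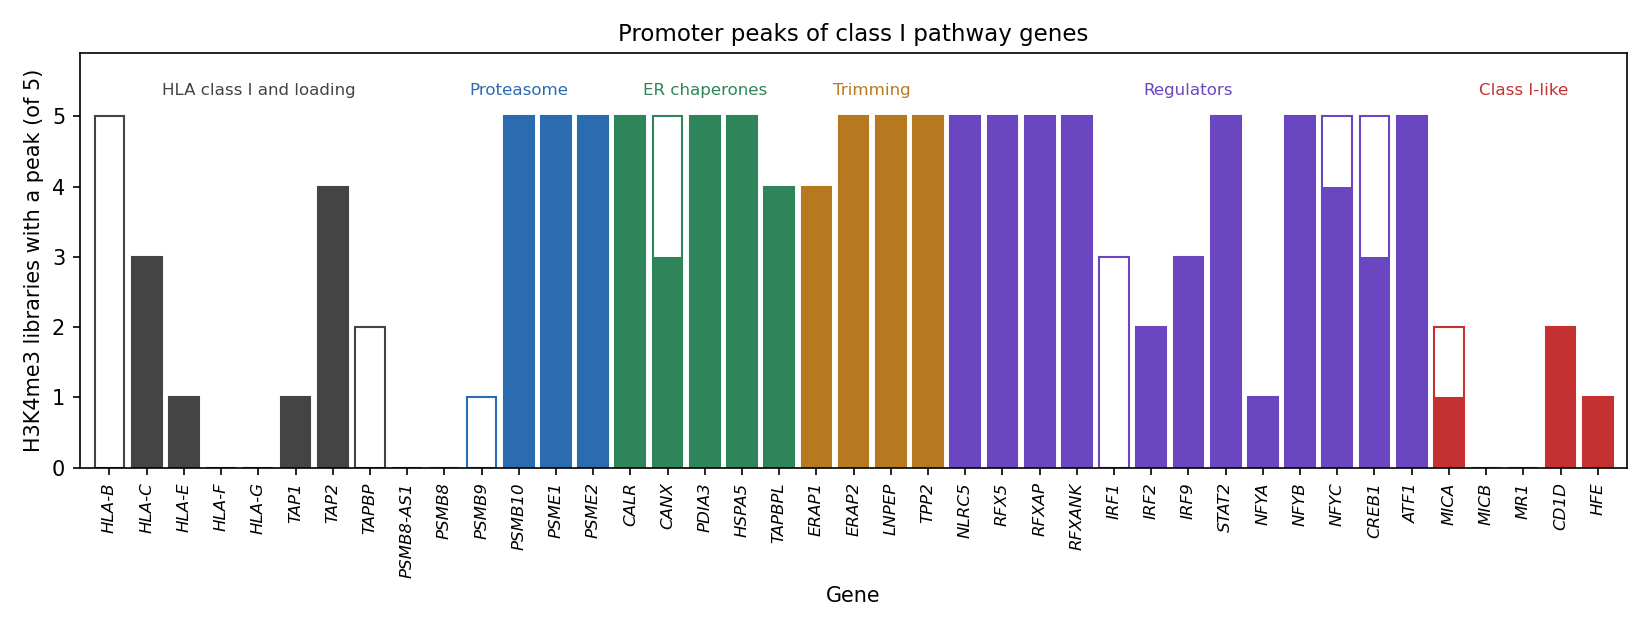
Number of H3K4me3 libraries, of 5, with a promoter peak at the 9 genes and at 32 other class I pathway genes (x axis, coloured by group). Filled bars use the most 5′ end and open bars the 5′ end of any transcript; 16 pathway genes reach 5 with filled bars, and among the 9 genes HLA-B reaches 5 with the open bar only.

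Between the lines, limma called 0 of the 16 pathway genes that could be tested in width or in summit fragments. The median log2 change, HA-Bcl-xL minus control, was -0.01 for width and -0.03 for summit fragments, beside -0.02 and -0.01 over all 5538 genes tested. RFX5 had the smallest p for width, with a log2 change of 1.03 (SE 0.44), a limma p of 0.0330 and an adjusted p of 0.950.

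The stretch of chr6 that holds the 9 genes had few promoter peaks. Of 150 protein-coding genes from HLA-F to TAPBP (chr6:29690552-33282061, 3.59 Mb), 12.0%, 7.33% and 10.7% had a promoter peak in the control libraries and 10.0% and 8.67% in the HA-Bcl-xL libraries. Among the other 898 protein-coding genes of chr6 the shares were 42.9%, 31.3% and 28.3% in control cells and 39.1% and 37.8% in HA-Bcl-xL cells. The span was thus lower in 5 of 5 libraries, at a mean of 9.73% ± 1.80 (SD, n = 5) against 35.9% ± 5.95, and the ranges did not overlap. No test was made over genes, which share their libraries. Merged over libraries, the span held 54 peak regions, of which 2 (3.70%) were present in all 5, against 13.1% of 1432 regions on the rest of chr6.

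**Figure D4:**
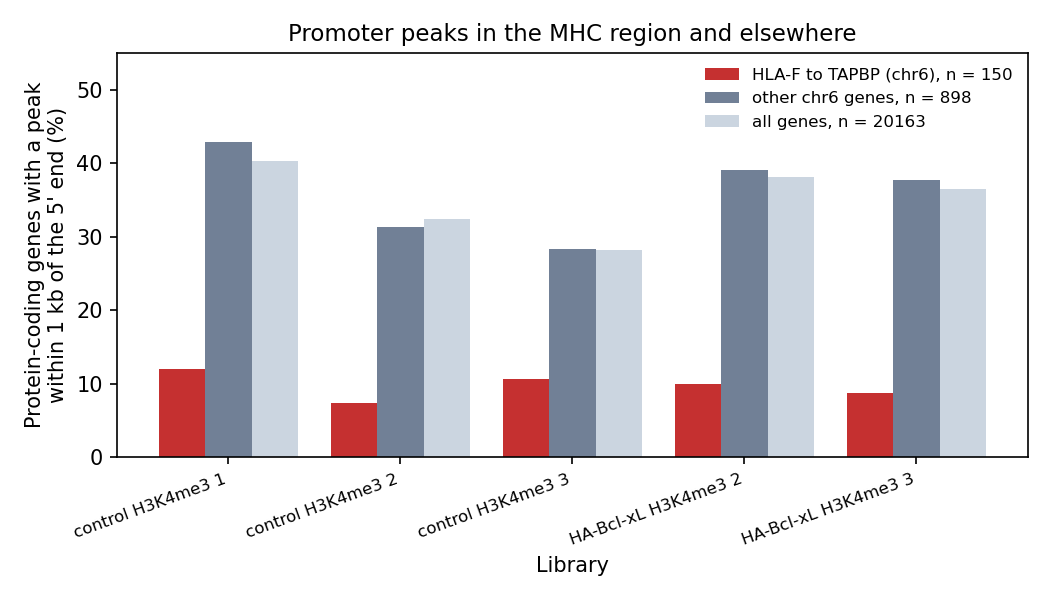
Share of protein-coding genes with an H3K4me3 peak within 1000 bp of the most 5′ end (y axis, percent) in each H3K4me3 library. Red bars are the 150 genes from HLA-F to TAPBP, dark grey the other 898 genes of chr6 and light grey all 20163 genes; the red bars lie between 7.33% and 12.0%, under both grey bars in each library.

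The hg19 genome also holds 7 alternative assemblies of this stretch, named apd_hap1, cox_hap2, dbb_hap3, mann_hap4, mcf_hap5, qbl_hap6 and ssto_hap7, and the peak lists had entries on each. Control replicates 1 to 3 had 135, 75 and 77 peaks on these contigs, and HA-Bcl-xL replicates 2 and 3 had 127 and 89. IgG libraries had 0 or 1. H3K4me3 exceeded IgG by 5.96 in log2 of the count plus 1 (two-sided exact permutation test, p = 0.00433, the smallest that 5 against 6 libraries can give). The H3K4me3 lists are also longer, with 10395 to 17961 peaks on all contigs against 296 to 2150 in the IgG lists. As a share of each list, contig peaks made up 0.567% to 0.763% in H3K4me3 and 0% to 0.319% in IgG libraries, a smaller gap. Every H3K4me3 library had at least 1 peak on each contig, from 1 to 6 on apd_hap1 and from 13 to 28 on cox_hap2.

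The contig peaks did not separate the lines. Their number was 95.7 ± 34.1 (SD, n = 3) in control cells and 108 ± 26.9 (SD, n = 2) in HA-Bcl-xL cells, a log2 difference of 0.21 (two-sided exact permutation test, p = 0.6, where the smallest possible is 0.2). As a share of each library's peaks the difference had the other sign, at -0.083. Of 311 merged contig regions 10 (3.22%) were present in all 5 libraries and 205 (65.9%) in 1, beside 16.2% and 49.5% of regions on chromosomes 1 to 22, X and Y, and 3.70% and 59.3% in the chr6 span from HLA-F to TAPBP.

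On chr6 itself the same libraries had 29, 14 and 19 peaks from HLA-F to TAPBP in control cells and 23 and 15 in HA-Bcl-xL cells. Summed over the 7 assemblies, contig peaks outnumbered chr6 peaks there by 4.05 to 5.93 times over the libraries. The mean per contig was lower than the chr6 count, at 0.579 to 0.848 times it. Median summits were low in both places, at 5 to 6 fragments on the contigs and 6 to 7 in the chr6 span, beside 9 to 12 over whole lists. How fragments that match several of these assemblies were placed is not given in the sources used here, and the part of the contigs in the counts on chr6, at the 9 genes included, was not tested. The contig peaks were not assigned to genes.

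**Figure D5:**
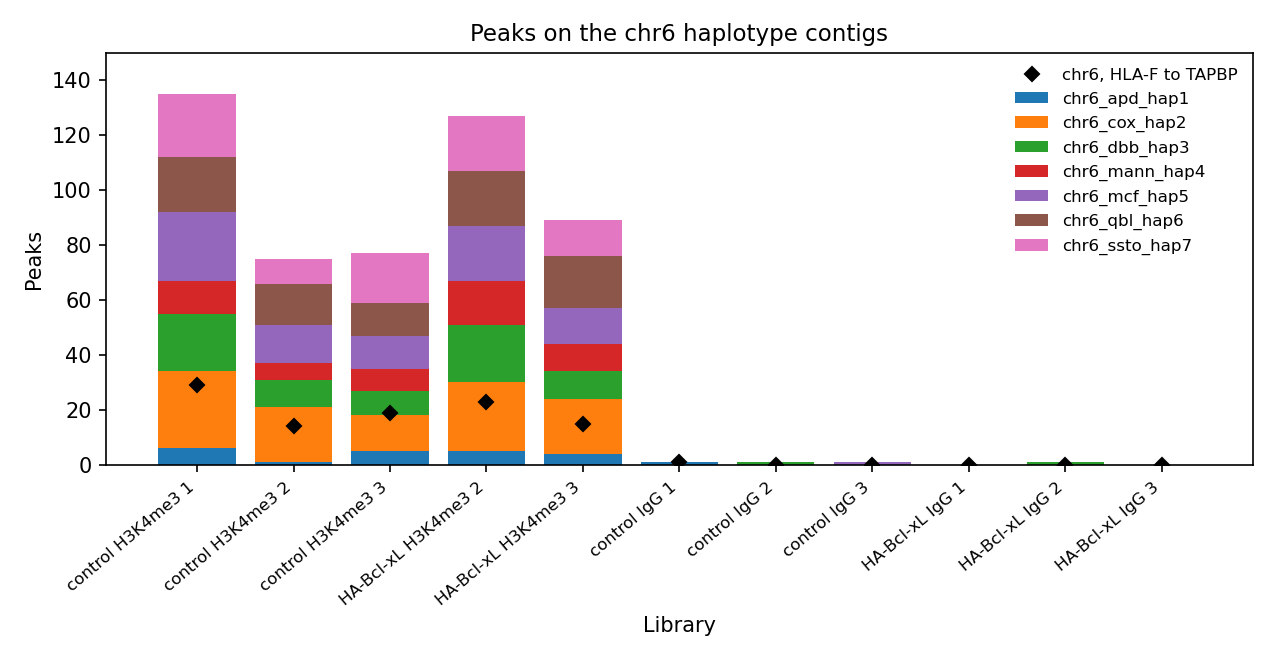
Number of peaks on the 7 chr6 haplotype contigs in each library (stacked bars, 1 colour per contig) and on chr6 from HLA-F to TAPBP (black diamonds). The H3K4me3 bars reach 75 to 135, above the diamonds at 14 to 29, and the IgG bars reach 0 or 1.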

How the data were processed

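CUT&RUN libraries were compared as 1 peak list each, in narrowPeak format, called per library. The values the authors deposited for a peak are its score, fold enrichment, -log10 p and -log10 q. The submitters' processing notes name bcl2fastq 2.20, Trimmomatic 0.36, Bowtie2 2.2.9, MACS2 2.1.1 and deepTools 3.5.1 with the build hg19; the caller's control, duplicate handling and placing of multiply matching reads are not given in the sources used here. Score, fold and -log10 values described or filtered peaks within their own list. A whole number of fragments at each summit was solved from fold and -log10 p (to within 0.001 for 96.6 to 99.97% of peaks), with the lowest background as the floor; it counts fragments only if the caller did, and covers counting error only.

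Gene ends came from GENCODE release 44 lifted to GRCh37. The promoter definitions are given above, with 2500 bp as a wider alternative. Presence was tested by Fisher's exact test, widths and summits by limma 3.58.1 in R 4.3.3, both adjusted over all genes, and contig peaks by exact permutation (scipy 1.17.1, Python 3.11.15, numpy 2.4.6, pandas 2.3.3, matplotlib 3.10.9). Solver, Fisher and limma steps were tested on simulated data. Groups came from the labels; replicate 1 of HA-Bcl-xL with the H3K4me3 antibody is not used here. The 9 genes, the lists and the tests were chosen with earlier results of these data known. All 9 genes are named, other genes by their list. Some genes of the lists are counted in them but not reported here by name. Alternatives were 2500 bp, any transcript end, a -log10 q of at least 5, 50% of a peak inside the window, equal list lengths, removal of peaks overlapping IgG peaks, no centring, a replicate block, and each library left out in turn. A replicate block at any transcript end, HLA-B with each library left out there, and 2500 bp around any transcript end were added after seeing the data.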

Additional observations from a re-analysis of the deposited data

Results flagged for a closer look

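The contig peaks lie outside the gene windows on chr6 and yet carried signal above the control antibody. The lowest H3K4me3 library, control replicate 2, had 75 peaks on the 7 haplotype contigs, and the highest IgG library had 1. The H3K4me3 lists are many times longer, and as a share of each list the gap was smaller, with at least 0.567% on the contigs in H3K4me3 and at most 0.319% in IgG libraries. Without contig sequence or annotation, which gene each peak belongs to was not tested.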

How the results depend on the processing

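The count of genes with an H3K4me3 peak over IgG was 5484; it was 0 with control libraries only, where 3 against 3 cannot go below an exact p of 0.1, and it ranged from 0 to 6647 with 1 library left out, 0 whenever it was an IgG library. For the replicate block, a sign test over 5 pairs called 0, since it cannot go below an exact p of 0.0625. Whether replicate numbers pair the libraries is not known. Correlations of deviations between a control and an HA-Bcl-xL library were 0.02 and 0.04 for the same number. They ranged from -0.042 to 0.029 for different numbers. With 2 HA-Bcl-xL libraries the deviations mirror each other, so these values cannot decide it. With a replicate block limma called 17 genes in width and 1 in summit fragments, and 11 and 3 at any transcript end, in place of 0. HLA-B then had an adjusted limma p of 0.981 in width and 0.267 in summit fragments. In this fit the width SE was the same at each pathway gene tested, at 0.523, or 0.528 at any transcript end. The width calls thus rest on a spread shared over genes, and replicate 1 has a control library only. With 1 library left out limma called 0 to 11 genes in width (2 without control replicate 2, 4 without HA-Bcl-xL replicate 2 and 11 without HA-Bcl-xL replicate 3) and 0 in summit fragments under the main definition. At any transcript end it called 0 to 3 in width, and in summit fragments 1 without control replicate 1, 1 without HA-Bcl-xL replicate 2 and 0 otherwise; none of these was HLA-B. The HLA-B log2 change in summit fragments ranged from -1.14 to -0.34 with 1 library left out. The difference in members with a peak ranged from -0.5 to 1 with 1 library left out, and was -0.5 without control replicate 2. The share of genes with a peak from HLA-F to TAPBP was 12.8% within 2500 bp, 12.4% at any transcript end, 6% at a -log10 q of at least 5 and 6.8% at equal list lengths, and 9.17% to 10.3% with 1 library left out. The log2 difference in contig peaks was -0.083 as a share of peaks, and -0.048 to 0.48 with 1 library left out, -0.048 without HA-Bcl-xL replicate 2. HLA-B (any transcript end, adjusted Fisher's exact p of 0.0130) and TAP2 (without control replicate 2, 0.0309) were the only members whose call changed under an alternative. The cause of these changes was not tested.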
